A study of Homo sapiens with 12 samples.

Results

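The endoplasmic reticulum (ER) folding and stress genes are 36 genes, taken by symbol from a list, out of 19647 genes in the table. This list and the other gene lists below were chosen with earlier results of these data known. Their shares of called genes beside those of all genes are therefore a description only. They were followed in 12 RNA-seq libraries of A549, a human lung adenocarcinoma line, in 4 groups of 3. The groups were cells overexpressing NR0B1 (labelled NR0B1 OE), their control (OEC, genotype WT-overexpression control), cells with NR0B1 knocked down by shNR0B1, and their control (shNC, genotype WT-knockdown control). No group was treated. The labels do not state the vector, the promoter driving NR0B1, the hairpin sequence or whether each line is 1 clone or a pool. NR0B1 (DAX1) is a nuclear receptor without a known ligand that mostly represses transcription. The comparisons ask how these genes stand when NR0B1 is raised or lowered, and how the control groups of the arms stand to each other.

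Proteins bound for secretion or for membranes enter the ER through the SEC61 translocon. There they are folded by HSP70 and HSP90 chaperones, by the sugar-binding chaperones calreticulin and calnexin, and by protein disulfide isomerases. Proteins that fail to fold are trimmed, moved back to the cytosol and degraded, a route called ER-associated degradation (ERAD). When unfolded protein builds up, the sensors IRE1 (gene ERN1), PERK (EIF2AK3) and ATF6 start the unfolded protein response. IRE1 cuts a short intron out of the XBP1 mRNA, PERK slows translation and lets ATF4 be made, and cleaved ATF6 enters the nucleus. XBP1 and ATF6 raise many of the genes described here.

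Library totals ran from 15049011 to 22797076 expected counts. Values are CPM, expected counts scaled to each library's effective size, unless FPKM (scaled to transcript length as well) is named. Of the 36 genes, 35 passed the filter on low values (an FPKM of at least 1 in at least 3 libraries). DERL3 did not: it had at most 1 expected count in a library, below the 3 counts used as a floor, which stand at 0.155 to 0.235 CPM. Log2 differences carry an approximate standard error (SE). Unless another method is named, calls and adjusted p-values are from the quasi-likelihood test of edgeR on 3 libraries per group. The p-values were adjusted by Benjamini-Hochberg over 11908 genes. The threshold for a call was an adjusted p of 0.05, and "rose", "fell", "higher" and "lower" with a count refer to called genes. The labels do not say that replicates came from separate cultures, so p-values measure the spread between these samples, which may be technical. NR0B1 stood at 81.8 to 98.9 CPM with overexpression and at 17.9, 60.1 and 55.2 in its control, a log2 difference of 0.99 that was not called (adjusted p = 0.0912). DESeq2 (adjusted p = 0.0415) and limma (adjusted p = 0.0461) called it, and without the 2 libraries that stand apart, named next, edgeR gave 0.62 (adjusted p = 0.0663). It stood at 2.99 to 5.84 CPM in the knockdown against 13.3 to 21.1 in the knockdown control (log2 difference -2.06, adjusted p = 0.00593). Overexpression control replicate 1 and knockdown replicate 2 stood apart from their groups, with mean correlations of 0.9370 and 0.9118 to their group mates across genes. Leaving out both was an alternative chosen after seeing the data. The 5 epithelial markers summed to 2601.5 to 6134.2 CPM, most of it KRT8 (1321.4 to 3253.4) and KRT18 (960 to 2676.7). CDH1 stood at 105 to 337 CPM, KRT19 at 7.63 to 205 and EPCAM at only 0.445 to 5.03. Endothelial markers summed to at most 0.509 CPM and fibroblast markers to at most 2.53.

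Calnexin had the highest mean per transcript length over the 12 libraries, though in the knockdown CALR (466 ± 41.2 FPKM) and P4HB (421 ± 48.4) had higher means. CANX stood at 498 ± 17.5 FPKM (SD) with overexpression, 596 ± 56.7 in its control, 407 ± 45.5 in the knockdown and 486 ± 15.8 in the knockdown control. P4HB, a protein disulfide isomerase, followed with a mean of 412 FPKM over the 12 libraries and a range of 306 to 492, which overlaps that of CANX. CALR had a mean of 353 FPKM (222 to 510), HSP90B1 241 (190 to 352), HSPA5 150 (129 to 170), PDIA6 130 (88.8 to 158) and PDIA4 112 (69.5 to 161). Neighbours in this order overlapped in range except HSP90B1 and HSPA5, since every HSP90B1 library lay above every HSPA5 library. XBP1 averaged 74.0 FPKM, whereas the sensors were far lower, at 13.9 for ERN1, 11.8 for EIF2AK3 and 10.9 for ATF6. CRELD2 averaged 3.28 FPKM and SDF2L1 3.67, the lowest among the 35 genes tested.

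The promoters of several members carry the ER stress response element, ERSE, which is the binding site of ATF6 with NF-Y. It is shown here because these genes are its textbook targets, although most members lacked a match. RefSeq promoter windows (GRCh38.p14, 250 bases before to 50 after each start) matched 33 of the 36 genes, and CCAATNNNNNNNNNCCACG was searched on both strands. It lay in 27 of 35116 windows in all (0.077%) and in 8 of the 33 members. The shorter ERSE-II, ATTGGNCCACG, lay in 19 windows (0.054%) and in 3 members. Each element is written in its own orientation, with the fixed letters in capitals and the free positions in lower case.
HSPA5: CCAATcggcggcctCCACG
HSP90B1: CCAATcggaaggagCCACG
HSP90B1, nearer copy: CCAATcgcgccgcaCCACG
PDIA6: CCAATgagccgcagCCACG
CALR: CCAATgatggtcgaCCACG
CANX: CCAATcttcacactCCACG
CRELD2: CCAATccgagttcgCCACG
XBP1: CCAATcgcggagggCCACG
ERO1B: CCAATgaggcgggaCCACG
SDF2L1, ERSE-II: ATTGGtCCACG
HYOU1, ERSE-II in both copies: ATTGGaCCACG
HERPUD1, ERSE-II: ATTGGgCCACG

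Counted from the start base as 0, the HSPA5 copy lay from -66 to -48, that of XBP1 from -52 to -34, and that of CALR from -225 to -207. The unfolded protein response element TGACGTGG, bound by XBP1, lay in 256 windows (0.729%) and in 2 members, DNAJC10 and HYOU1, where it overlapped the farther ERSE-II copy. TGATGCAA, an element that ATF4 binds with a partner, lay in 304 windows (0.866%) and in HERPUD1 alone among the members. The 150 bases before the HSPA5 start, chr9:125241344-125241493 on the minus strand (GRCh38.p14), show the ERSE, in capitals, in its setting ahead of the TATA-like run.
HSPA5 promoter: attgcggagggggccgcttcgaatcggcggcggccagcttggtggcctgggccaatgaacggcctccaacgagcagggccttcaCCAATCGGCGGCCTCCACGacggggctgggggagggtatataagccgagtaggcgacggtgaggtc

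The 11 members with an ERSE or ERSE-II match and the 22 without one gave the following counts of called genes, as a description. They were 2 and 3 with overexpression (18.2% and 13.6%, beside 18.1% of all genes). In the knockdown they were 3 and 5 (27.3% and 22.7%, beside 23.9%), and between the controls 7 and 12 (63.6% and 54.5%, beside 33.4%).

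With NR0B1 overexpression, 6 of 35 members fell and 0 rose. Those that fell were the HSP90 chaperone HSP90B1, the lectin chaperone CALR, the disulfide isomerases PDIA3 and PDIA4, and the ERAD genes EDEM2 and OS9. The share called was 17.1%, beside 18.1% of all genes tested (9.87% higher and 8.20% lower). The members' median log2 difference was -0.21, beside -0.03 over all genes, and 26 of 35 lay below 0. The groups did not overlap for 18 members, beside 43.5% of all genes. Without the libraries that stand apart, 12 members were called lower and 1 higher, 37.1% beside 37.5% of all genes in that fit (19.9% higher and 17.6% lower).

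In the knockdown, 7 of 35 members rose and 2 fell. CALR, the isomerases PDIA3, PDIA4, PDIA6 and P4HB, the co-chaperone DNAJC3 and the translocon subunit SEC61B rose, while XBP1 and ERN1 fell. The share called was 25.7%, beside 23.9% of all genes (12.4% higher and 11.5% lower). The median was 0.23, beside 0.03 over all genes. The groups did not overlap for 18 members, beside 40.9% of all genes. Over all genes, limma on log2(FPKM + 1) gave 1178 higher and 1703 lower, whereas edgeR gave 1479 and 1372. Without the libraries that stand apart, 11 members were called higher and 4 lower, 42.9% beside 37.7% of all genes in that fit.

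Between the controls, 21 of 35 members were higher in the overexpression control and 0 were higher in the knockdown control. The share called was 60.0%, beside 33.4% of all genes (17.2% higher and 16.1% lower), and the median was 0.65, beside 0.01. The groups did not overlap for 28 members, beside 54.0% of all genes. Over all genes, limma gave 1670 higher and 2463 lower, whereas edgeR gave 2051 and 1922. Among the members, DESeq2 called 23 higher and 1 lower and limma on log2(FPKM + 1) called 21 and 1, the lower gene being ERN1. Without the libraries that stand apart, 23 members were higher and 2, XBP1 and ERN1, lower, 71.4% beside 47.5% of all genes in that fit. NR0B1 itself was higher in the overexpression control, by 1.40 ± 0.39 (adjusted p = 0.0189), and by 1.77 without the libraries that stand apart (adjusted p = 0.000321), although the groups overlapped. That call ended without overexpression control replicate 2 or 3 or knockdown control replicate 1 or 3 (adjusted p up to 0.0782). The control groups enter both arms: the overexpression control is the baseline of one and the knockdown control that of the other, so the comparisons share libraries and are not independent of each other. In bulk RNA, fewer cells with a transcript and less of it per cell cannot be told apart.

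**Figure D1:**
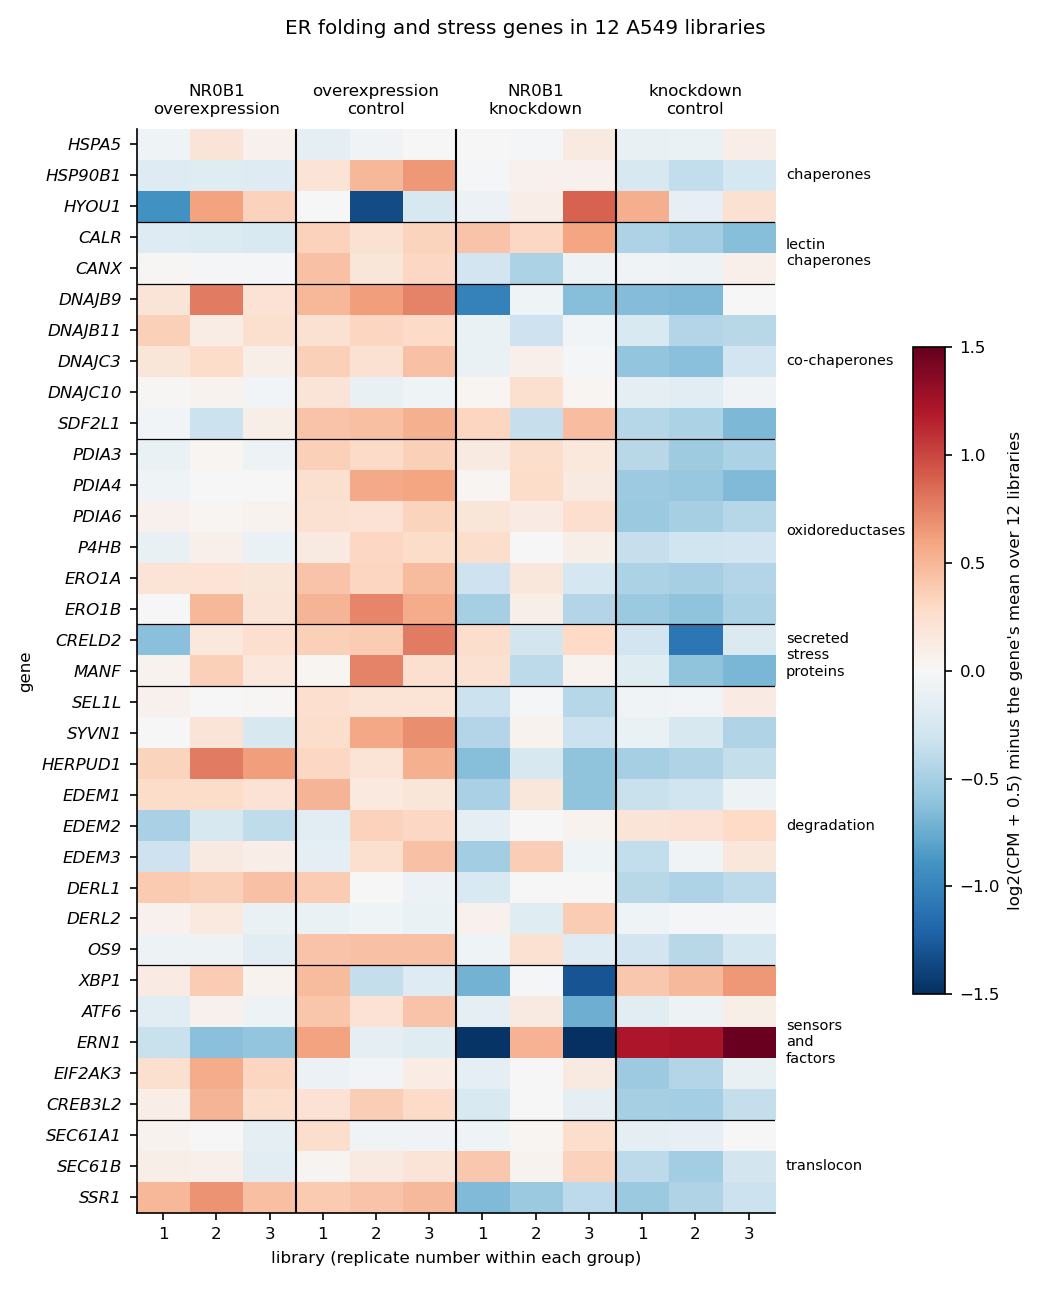
The heat map shows log2(CPM + 0.5) of 35 ER genes (rows, by role) in the 12 libraries (columns, by group), each minus the gene's own mean, with colours that stop at 1.5 either way. In each overexpression control library 27 to 29 members lie above their own mean, against 3 to 9 in each knockdown control library.

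**Figure D2:**
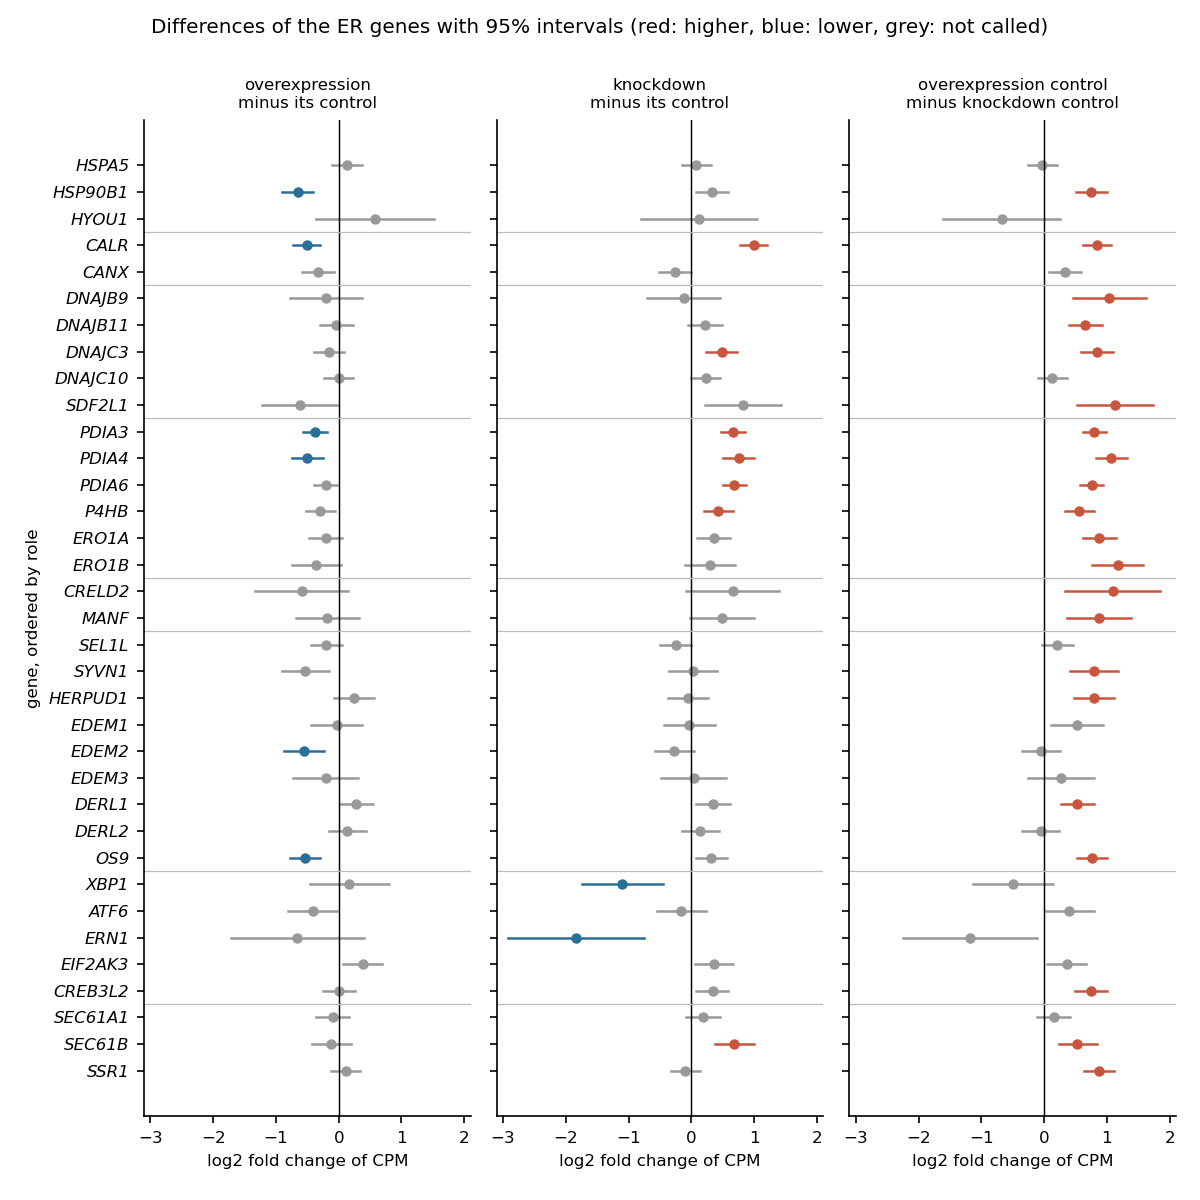
Points are edgeR log2 differences of CPM for 35 ER genes in 3 comparisons and lines are 95% intervals, red where called higher, blue where called lower and grey where not called. The overexpression panel holds 6 blue genes, the knockdown panel 7 red and 2 blue, and the panel of the controls 21 red.

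HSPA5 encodes BiP, the HSP70 chaperone that binds and restrains the sensors, and its mRNA is a standard readout of ER stress (chromosome 9, 125234853 to 125241330, minus strand, GRCh38, GENCODE 29). It stood at 682, 818 and 751 CPM with overexpression and at 645, 687 and 720 in its control. In the knockdown it stood at 720, 705 and 787 CPM, and in the knockdown control at 660, 666 and 765. All 4 groups overlapped. The log2 differences were 0.13 ± 0.11 (SE, adjusted p = 0.405) with overexpression, 0.08 ± 0.11 (adjusted p = 0.616) in the knockdown and -0.03 ± 0.11 (adjusted p = 0.862) between the controls. The 95% intervals ran from -0.10 to 0.37 and from -0.15 to 0.32 for the arms.

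HSP90B1, the ER HSP90 also called GRP94 (chromosome 12, 103930107 to 103953645), stood at 569, 573 and 568 CPM with overexpression against 753, 918 and 1020.4 in its control. In the knockdown it stood at 644, 683 and 681 CPM, above 551, 506 and 542 in the knockdown control. Neither arm's groups overlapped. It fell with overexpression by 0.65 ± 0.11 in log2 units (adjusted p = 0.00483), whereas the knockdown difference of 0.33 ± 0.11 just missed the threshold (adjusted p = 0.0549). That difference passed without overexpression control replicate 1 (adjusted p = 0.0169) or replicate 3 (adjusted p = 0.0459). DESeq2 (adjusted p = 0.0152) and limma on log2(FPKM + 1) (adjusted p = 0.0427) called HSP90B1 higher in the knockdown. So did edgeR without both libraries that stand apart (0.31, adjusted p = 0.00920). With the replicate number as a block HSP90B1 was not called there (adjusted p = 0.0736). Between the controls it was higher by 0.75 ± 0.11 (adjusted p = 0.000995).

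HYOU1, an HSP70-like chaperone that exchanges nucleotide on BiP, ranged from 20.3 to 96.7 CPM and varied as much within groups as between them. It was not called in any comparison. Assembled transcripts under its symbol, left out of the gene values here, held 46.0% to 89.3% of its counts. With them added, it ranged from 144 to 230 CPM, so its level in the Ensembl rows alone is uncertain.

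CALR, or calreticulin, holds newly made glycoproteins for folding and binds calcium (chromosome 19, 12938578 to 12944489). It stood at 693, 687 and 672 CPM with overexpression against 1003.1, 929 and 994 in its control. In the knockdown it stood at 1063.2, 979 and 1194.5 CPM against 573, 550 and 508 in the knockdown control. The groups did not overlap in either arm, and the overexpression control lay with the knockdown libraries while the knockdown control lay lowest. CALR fell with overexpression by 0.51 ± 0.10 in log2 units (adjusted p = 0.00831) and rose in the knockdown by 0.99 ± 0.10 (adjusted p = 0.000202), a 1.99-fold change. Both calls held with any 1 library left out, with adjusted p-values up to 0.0475 and 0.00227. Its membrane-bound relative CANX was not called in either arm. It stood at 1686.6 to 1742.6 CPM with overexpression against 1957.0 to 2326.0, and at 1240.1 to 1626.2 in the knockdown against 1639.1 to 1809.3. The overexpression difference of CANX passed without knockdown replicate 2 (adjusted p = 0.0249) or 3 (adjusted p = 0.0465), and its knockdown difference without replicate 3 of the knockdown (adjusted p = 0.0482).

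**Figure D3:**
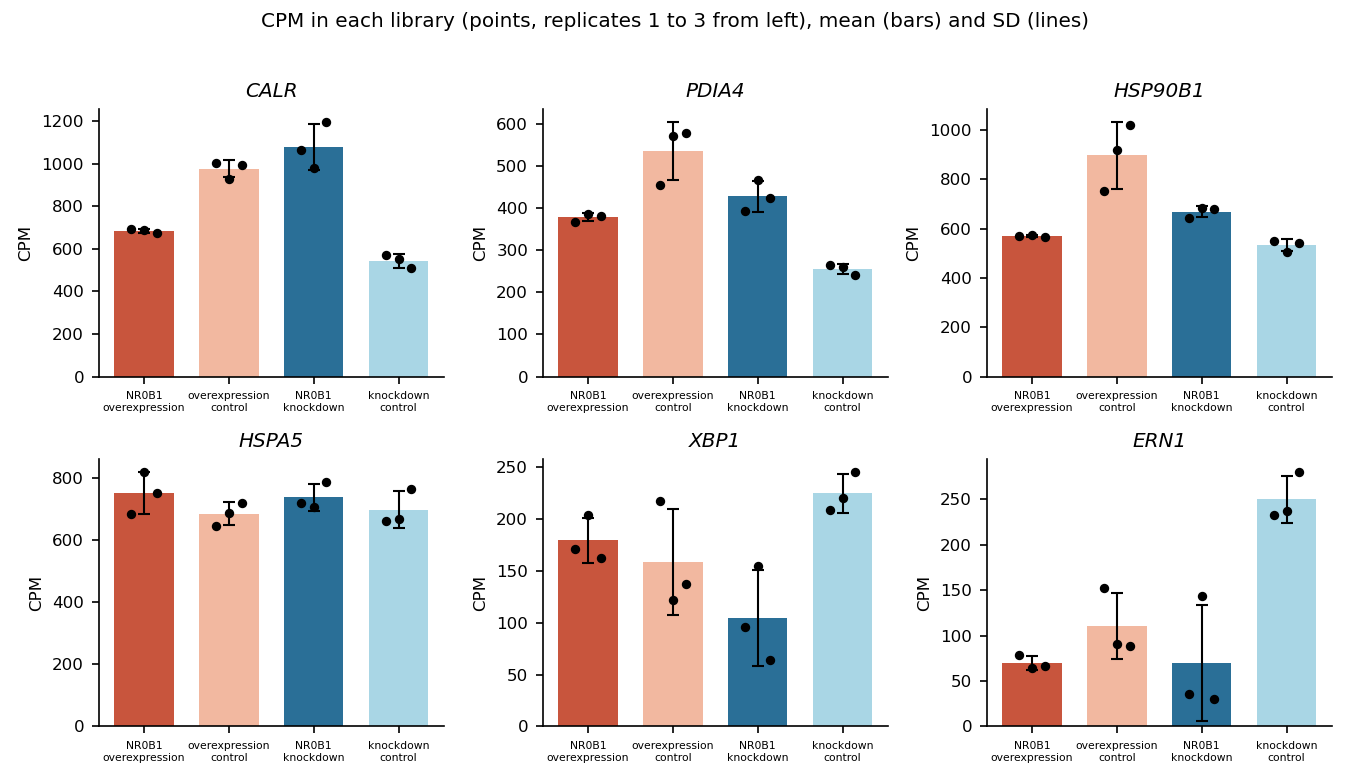
Each panel plots CPM for 1 gene in the 4 groups, with points for the 3 libraries, bars for the mean and lines for the SD. CALR, PDIA4 and HSP90B1 lie lower with overexpression than in its control and higher in the knockdown than in its control, HSPA5 overlaps in all groups, and for XBP1 and ERN1 knockdown replicate 2 lies above the other 2 knockdown libraries.

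The oxidoreductases form and shuffle disulfide bonds: ERO1A and ERO1B oxidise the isomerases PDIA3, PDIA4, PDIA6 and P4HB, which act on client proteins. Between the controls all 6 were higher in that of overexpression (100%, beside 33.4% of all genes called). In the knockdown 4 of 6 rose (66.7%, beside 23.9%) and in overexpression 2 of 6 fell (33.3%, beside 18.1%). PDIA4 (chromosome 7, 149003062 to 149028641) stood at 368, 385 and 382 CPM with overexpression against 455, 571 and 578 in its control. In the knockdown it stood at 393, 467 and 424 CPM against 264, 260 and 242. The groups did not overlap in either arm. PDIA4 fell by 0.50 ± 0.11 in log2 units with overexpression (adjusted p = 0.0142) and rose by 0.75 ± 0.11 in the knockdown (adjusted p = 0.00130). The fall did not pass without overexpression replicate 2 (adjusted p = 0.0523) or 3 (adjusted p = 0.0604), or without replicate 2 (adjusted p = 0.0589) or 3 (adjusted p = 0.0597) of its control.

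PDIA3, the isomerase that works with calreticulin and calnexin on glycoproteins, stood at 254, 279 and 259 CPM with overexpression against 349, 333 and 349. In the knockdown it stood at 299, 328 and 305 CPM against 205, 189 and 196, again with no overlap. It fell by 0.38 ± 0.09 in log2 units (adjusted p = 0.0136) and rose by 0.66 ± 0.09 (adjusted p = 0.000621). Its fall did not pass without overexpression replicate 1 (adjusted p = 0.0532) or 3 (adjusted p = 0.0689), or without replicate 3 of the control (adjusted p = 0.0511). The pseudogenes PDIA3P1 and PDIA3P2 could share reads with it, as could SSR1P1 and SSR1P2 with SSR1 and XBP1P1 with XBP1, so these 3 levels are uncertain to that extent.

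PDIA6 stood at 414, 397 and 436 CPM in the knockdown against 247, 258 and 272, a rise of 0.68 ± 0.09 on the log2 scale (adjusted p = 0.000522). Its overexpression difference was -0.21 ± 0.09 and was not called (adjusted p = 0.102). DESeq2 called it lower (adjusted p = 0.0198), as did edgeR without both libraries that stand apart (-0.23, adjusted p = 0.0324). Limma on log2(FPKM + 1) did not (adjusted p = 0.127). P4HB stood at 1064.0, 880 and 941 CPM in the knockdown against 693, 719 and 724, a rise of 0.43 ± 0.11 (adjusted p = 0.0135). That call ended without knockdown control replicate 1 (adjusted p = 0.0669), 2 (adjusted p = 0.0523) or 3 (adjusted p = 0.0519). The P4HB difference with overexpression, -0.29 ± 0.11 (adjusted p = 0.0753), passed without control replicate 1 (adjusted p = 0.0476) or knockdown replicate 2 (adjusted p = 0.0397). ERO1A ranged from 227 to 277 CPM in the overexpression arm and from 141 to 224 in the knockdown arm. Between the controls it differed by 0.88 ± 0.12 (adjusted p = 0.000684) and ERO1B by 1.17 ± 0.18 (adjusted p = 0.00113), the widest difference among the members called there. Neither was called in an arm, and ERO1A passed in the knockdown without its replicate 1 (adjusted p = 0.0354) or 3 (adjusted p = 0.0349).

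Co-chaperones of the DNAJ family bring clients to BiP, and SDF2L1 works with DNAJB11. Of these 5 genes 0 were called with overexpression, beside 18.1% of all genes. In the knockdown DNAJC3, which also restrains PERK, stood at 77.3, 86.8 and 80.8 CPM against 54.7, 53.3 and 67.5 and rose by 0.48 ± 0.11 in log2 units (adjusted p = 0.0122). That call ended without knockdown control replicate 1 (adjusted p = 0.0589) or 2 (adjusted p = 0.0588). SDF2L1, at 2.15 to 5.60 CPM in all libraries, had a knockdown difference of 0.82 ± 0.28 (adjusted p = 0.0518), which passed without knockdown replicate 2 (adjusted p = 0.0105). DESeq2 (adjusted p = 0.0305) and limma on log2(FPKM + 1) (adjusted p = 0.0396) called it higher. So did edgeR without both libraries that stand apart (1.05, adjusted p = 0.00862). With the replicate number as a block it was not called (adjusted p = 0.0761). Between the controls 4 of 5 were higher in the overexpression control (80.0%, beside 33.4% of all genes called). Their log2 differences were 0.65 for DNAJB11, 0.84 for DNAJC3, 1.04 for DNAJB9 and 1.13 for SDF2L1. The DNAJB9 call ended without knockdown control replicate 1 (adjusted p = 0.0537) or 2 (adjusted p = 0.0530). DNAJC10, a disulfide reductase with a J domain, stood at 182 to 242 CPM and was not called.

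CRELD2 and MANF are small ER proteins that are released under stress. Neither was called in an arm. CRELD2 stood at 6.99, 7.10 and 9.50 CPM in the overexpression control against 4.28, 2.25 and 4.52 in the knockdown control, a difference of 1.09 ± 0.34 (adjusted p = 0.0306). The call ended without overexpression control replicate 2 (adjusted p = 0.0551) or 3 (adjusted p = 0.101), or knockdown control replicate 1 (adjusted p = 0.0592) or 2 (adjusted p = 0.108). MANF stood at 17.8, 29.7 and 20.8 CPM against 15.3, 11.3 and 10.7 (difference 0.88 ± 0.23, adjusted p = 0.0149). Its call ended without overexpression control replicate 2 (adjusted p = 0.0655) or knockdown control replicate 2 (adjusted p = 0.0589) or 3 (adjusted p = 0.0665). Assembled transcripts held 0% to 60.5% of CRELD2 counts and 0% to 42.4% of MANF counts, depending on the library. With them added, MANF was called in the knockdown (0.54, adjusted p = 0.0472) and for the difference of the arms (-0.77, adjusted p = 0.0418). Between the controls the difference was then 0.75 for CRELD2 (adjusted p = 0.0119) and 1.13 for MANF (adjusted p = 0.000998).

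Of the 10 ERAD genes, 9 were tested. OS9, a lectin that hands misfolded glycoproteins to the SEL1L and SYVN1 ligase, stood at 191, 191 and 181 CPM with overexpression against 271, 274 and 275 in its control. It fell by 0.54 ± 0.11 in log2 units (adjusted p = 0.00910), a call that held with any 1 library left out (adjusted p up to 0.0466). In the knockdown its difference was 0.32 ± 0.11 (adjusted p = 0.0530), which passed without knockdown replicate 3 (adjusted p = 0.0183). EDEM2, a mannosidase that marks glycoproteins for disposal, stood at 28.5, 33.9 and 30.6 CPM against 35.6, 51.2 and 49.8 and fell by 0.55 ± 0.14 (adjusted p = 0.0232). That call ended without overexpression replicate 1 (adjusted p = 0.0795), 2 (adjusted p = 0.0530) or 3 (adjusted p = 0.0911) and without control replicate 2 (adjusted p = 0.0915) or 3 (adjusted p = 0.0861). Between the controls EDEM2 is 1 of 6 members with a difference below 0, at -0.05 ± 0.14 (adjusted p = 0.793). In the knockdown 0 of 9 ERAD genes were called in the edgeR fit of all libraries, beside 23.9% of all genes. SEL1L, the scaffold of the ligase, had a difference of -0.25 ± 0.11 there (adjusted p = 0.119), which passed without knockdown replicate 2 (adjusted p = 0.00773). Without both libraries that stand apart, DERL1 was called higher (0.31, adjusted p = 0.0194). SEL1L (-0.38, adjusted p = 0.00463) and EDEM1 (-0.32, adjusted p = 0.0257) were then called lower. DESeq2 called DERL1 (0.35, adjusted p = 0.0352) and OS9 (0.32, adjusted p = 0.0218) higher. Limma on log2(FPKM + 1) called OS9 (adjusted p = 0.0477) but not DERL1 (adjusted p = 0.161).

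Between the controls 4 of the 9 ERAD genes tested were higher in the overexpression control (44.4%, beside 33.4% of all genes called). These were OS9 by 0.76, SYVN1 by 0.79, HERPUD1 by 0.80 and DERL1 by 0.53. HERPUD1, which links the ligase to its channel, stood at 91.8 to 137 CPM in the 6 libraries of the overexpression arm and at 51.3 to 67.3 in the 6 of the knockdown arm. These ranges do not overlap. SYVN1 shares exons with FAU and MRPL49. In all 21 of the 36 members overlap exons of another gene, among them CALR, HSP90B1, PDIA3, PDIA6 and SSR1, and whether counting used strand is not stated, so their levels are uncertain to that extent. The overexpression difference of SYVN1, -0.53 ± 0.17 (adjusted p = 0.0537), passed without control replicate 1 (adjusted p = 0.0246) or knockdown replicate 2 (adjusted p = 0.0287). That of DERL1 was 0.28 ± 0.12 and was not called (adjusted p = 0.124). It passed without control replicate 1 (adjusted p = 0.0117) and without both libraries that stand apart (0.44, adjusted p = 0.00424).

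The translocon genes showed the same split between arms for SSR1, a subunit of the translocon-associated complex. It stood at 286 to 345 CPM in the overexpression arm and at 137 to 174 in the knockdown arm, and the controls differed by 0.88 ± 0.11 (adjusted p = 0.000390). SSR1 was not called within either arm, at 0.11 ± 0.11 (adjusted p = 0.509) and -0.10 ± 0.11 (adjusted p = 0.519). SEC61B, the beta subunit of the channel, stood at 28.9, 22.5 and 27.6 CPM in the knockdown against 16.4, 14.9 and 17.8, a rise of 0.68 ± 0.14 (adjusted p = 0.00573). Between the controls it differed by 0.53 ± 0.14 (adjusted p = 0.0140), and that call ended without knockdown control replicate 1 (adjusted p = 0.0506) or 2 (adjusted p = 0.0657). SEC61A1, the pore itself, stood at 246 to 328 CPM and was not called.

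Among the 5 sensors and factors, XBP1 and ERN1 fell in the knockdown and 0 rose (40.0% called, beside 23.9% of all genes). XBP1, the transcription factor made from the mRNA that IRE1 splices (chromosome 22, 28794555 to 28800597, minus strand), stood at 95.3, 154 and 63.7 CPM in the knockdown against 208, 220 and 245 in its control. It fell by 1.10 ± 0.29 in log2 units (adjusted p = 0.0195). That call ended without knockdown replicate 1 (adjusted p = 0.0632) or knockdown control replicate 3 (adjusted p = 0.0617), and without both libraries that stand apart the fall was 1.49 in size (log2 difference -1.49, adjusted p = 0.000254). ERN1, which encodes the sensor IRE1 (chromosome 17, 64039142 to 64130819, minus strand), stood at 35.7, 144 and 30.4 CPM in the knockdown against 233, 237 and 280. Knockdown replicate 2 lay between the other knockdown libraries and the control. ERN1 fell by 1.83 ± 0.49 in log2 units (adjusted p = 0.0217), and without both libraries that stand apart its log2 difference was -2.92 (adjusted p = 7.99e-06). The call ended without knockdown replicate 1 (adjusted p = 0.0662) or knockdown control replicate 3 (adjusted p = 0.0617). In edgeR with only these 2 groups fitted, neither fall was called (XBP1 -1.10, adjusted p = 0.0509, and ERN1 -1.83, adjusted p = 0.0807).

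With overexpression, XBP1 stood at 171, 204 and 162 CPM and ERN1 at 79.1, 64.4 and 66.4. In the overexpression control they stood at 217, 122 and 137 CPM and at 152, 90.8 and 88.4. Replicate 1 of that control was the highest library of its group for both genes. Neither was called with overexpression (XBP1 0.17 ± 0.29, adjusted p = 0.706; ERN1 -0.66 ± 0.48, adjusted p = 0.363). Without both libraries that stand apart the differences were 0.47 for XBP1 (adjusted p = 0.0513) and -0.36 for ERN1 (adjusted p = 0.0407). The ERN1 difference passed without knockdown replicate 2 (adjusted p = 0.0330), which enters through the shared estimate of the spread. Between the controls neither was called in the edgeR fit of all libraries (adjusted p = 0.203 for XBP1 and 0.0819 for ERN1). With all libraries kept, DESeq2 (-1.19, adjusted p = 0.0276) and limma on log2(FPKM + 1) (-1.15, adjusted p = 0.0381) called ERN1 lower in the overexpression control. So did edgeR with only these 2 groups fitted (-1.19, adjusted p = 0.00636). Without both libraries that stand apart XBP1 and ERN1 were lower in the overexpression control, by -0.79 for XBP1 (adjusted p = 0.00390) and -1.48 for ERN1 (adjusted p = 2.78e-05). ERN1 was also called there without knockdown replicate 2 (adjusted p = 0.000964) or 3 (adjusted p = 0.0428) alone.

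EIF2AK3 and ATF6 were not called in any comparison in the edgeR fit of all libraries. EIF2AK3 was called higher with overexpression by DESeq2 (0.39, adjusted p = 0.0493). With the replicate number as a block it was called higher in the overexpression control (0.36, adjusted p = 0.0468). With only the 2 groups fitted, ATF6 was called lower with overexpression (-0.40, adjusted p = 0.0342). Fitted so, it was also called higher in the overexpression control (0.39, adjusted p = 0.0237). Assembled transcripts held 18.8% to 45.2% of ATF6 counts, so its level is uncertain. With them added it was lower in the knockdown (-0.44, adjusted p = 0.0333), and its difference between the controls went from 0.40 to -0.02. ATF6 also passed with overexpression without knockdown replicate 3 (adjusted p = 0.0263), and between the controls without knockdown replicate 2 (adjusted p = 0.0464) or 3 (adjusted p = 0.0183). EIF2AK3 ranged from 61.0 to 76.1 CPM with overexpression and from 48.8 to 56.1 in its control, a difference of 0.38 ± 0.14 (adjusted p = 0.0781). Without knockdown control replicate 3, EIF2AK3 passed in the knockdown (0.50, adjusted p = 0.0467) and between the controls (0.49, adjusted p = 0.0359). CREB3L2, an ER-anchored factor processed like ATF6, stood at 228 to 303 CPM in the overexpression arm and at 150 to 212 in the knockdown arm. It was higher in the overexpression control by 0.75 ± 0.12 (adjusted p = 0.00113). In the knockdown its difference of 0.34 ± 0.12 was not called (adjusted p = 0.0548), and it passed without overexpression replicate 1 (adjusted p = 0.0488) or overexpression control replicate 1 (adjusted p = 0.0496).

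The table also splits XBP1 into transcripts. IRE1 removes 26 bases from the unspliced mRNA, bases 570 to 595 of XBP1-201 (ENST00000216037), which shifts the reading frame. The stretch is shown because it alone distinguishes the forms at this place, with the removed bases in capitals.
XBP1-201, unspliced: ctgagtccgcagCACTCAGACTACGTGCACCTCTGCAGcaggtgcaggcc
XBP1-207, spliced: ctgagtccgcagcaggtgcaggcc

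XBP1-207 (ENST00000611155) and XBP1-202 (ENST00000344347) lack these bases. Their share of the XBP1 expected counts was 8.95%, 4.41% and 4.95% with overexpression and 12.22%, 30.99% and 30.64% in its control. In the knockdown it was 0%, 13.03% and 3.0%, and in the knockdown control 11.53%, 8.99% and 16.68%. The overexpression libraries all lay below their control, whereas the knockdown groups overlapped, with replicate 2 of the knockdown the highest of its group. The 0% is 0 of 1849 expected counts. Only reads over the bases that differ can tell the forms apart, and their number is not known, so no upper limit is given. The means were 6.1% ± 2.48 (SD, n = 3) and 24.62% ± 10.74 in the overexpression arm, with an exact two-sided permutation p of 0.1, the smallest that 3 against 3 libraries can give. In the knockdown arm they were 5.34% ± 6.82 and 12.4% ± 3.92 (exact permutation p = 0.3, n = 3), and between the controls the exact permutation p was 0.2. All 3 were 0.3 after Benjamini-Hochberg adjustment over the 3 comparisons. The share rests on how the authors' software divided reads among transcripts that are nearly the same. XBP1-207 also differs from XBP1-201 in overall length (1794 and 1850 bases), so it is an estimate and not a count of reads across the junction.

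**Figure D4:**
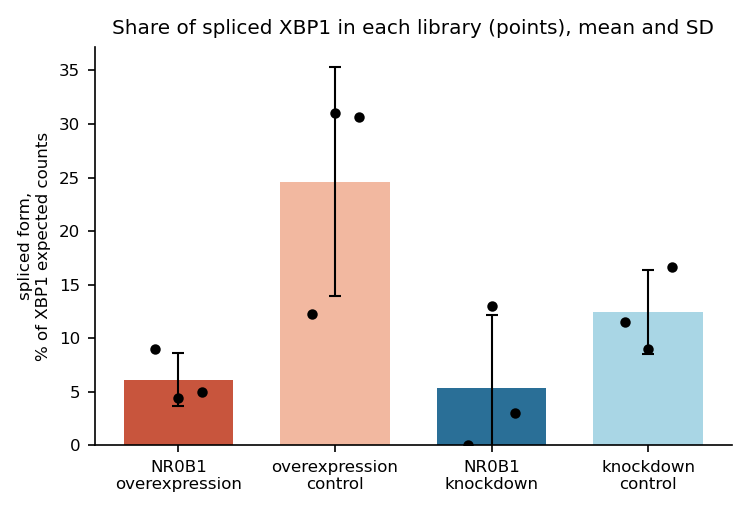
The plot shows the spliced form as a percentage of XBP1 expected counts in each library (points), with the mean (bars) and SD (lines, cut at 0 for the knockdown). Overexpression libraries lie at 4.41% to 8.95% and all below the 12.22% to 30.99% of their control.

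The difference between the arms, the overexpression response minus the knockdown response, was tested directly in the same fit. Of 35 members 11 were called lower and 1 higher, 34.3% beside 25.6% of all genes (13.1% higher and 12.6% lower), with a median of -0.27 beside -0.06. Over all genes, limma on log2(FPKM + 1) gave 60.2% of its calls as higher, whereas edgeR gave 51.0%. The widest difference was that of CALR, -1.50 ± 0.14 (adjusted p = 0.000155), followed by SDF2L1 at -1.44 ± 0.39 (adjusted p = 0.0205), PDIA4 at -1.24 ± 0.16 (adjusted p = 0.000587) and PDIA3 at -1.04 ± 0.12 (adjusted p = 0.000364). HSP90B1, PDIA6, OS9, SEC61B, P4HB, DNAJC3 and ERO1A lay between -0.98 and -0.57. The gene called higher was XBP1, at 1.28 ± 0.41 (adjusted p = 0.0412). The XBP1 call ended in 9 of the 12 omissions of 1 library, all but those of overexpression control replicate 1 and knockdown replicates 2 and 3, with adjusted p-values from 0.0546 to 0.0917. ERO1A ended in 7 of them, each overexpression and knockdown control library and overexpression control replicate 3 (0.0629 to 0.0779). With limma, P4HB (adjusted p = 0.0579) and ERO1A (adjusted p = 0.0746) were not called. DNAJC3 ended without overexpression replicate 3 (adjusted p = 0.0516) or knockdown control replicate 2 (adjusted p = 0.0501), and SDF2L1 without overexpression replicate 2 (adjusted p = 0.0564) or knockdown control replicate 3 (adjusted p = 0.0571). ERN1 was not called (1.18 ± 0.68, adjusted p = 0.222) but reached 2.56 without both libraries that stand apart (adjusted p = 2.17e-05). This contrast uses the same control libraries as the others, so it adds no independent samples.

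The monocyte marker CD14 was called in the same directions as CALR, PDIA3 and PDIA4 in both arms and between the controls. It was at 8.59 to 9.28 CPM in the overexpression control and 2.82 to 3.90 with overexpression, and at 0.840 to 1.58 in the knockdown control and 3.14 to 7.85 in the knockdown. Of other immune markers, CD3E was at 0 in all libraries and PTPRC, present in all leukocytes, was above 0 in 1 library at 0.0515 CPM. Of the 5 epithelial markers, CDH1 was higher in the control of overexpression (1.46 on the log2 scale against that of the knockdown, adjusted p = 0.000233) and KRT19 was lower there (-1.62, adjusted p = 0.00974). CDH1 fell with overexpression (-1.01, adjusted p = 0.00215), and EPCAM (1.74, adjusted p = 0.00930), KRT19 (1.44, adjusted p = 0.0202) and CDH1 (0.48, adjusted p = 0.0306) rose in the knockdown. The part of these markers in the members' differences was not tested.

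Other genes of the ER pathway, 95 in 6 lists with no member among them, were counted in the same fit, and 94 were tested. In overexpression 8 were higher and 14 lower, in the knockdown 19 and 10, and between the controls 41 and 8. The shares called were 23.4%, 30.9% and 52.1%, beside 18.1%, 23.9% and 33.4% of all genes. Their medians were -0.10, 0.07 and 0.31, beside -0.03, 0.03 and 0.01. The overexpression count ranged from 5 to 32 and that of the knockdown from 17 to 35 with 1 library left out.

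Of 20 other redox and folding genes, 13 were higher and 0 lower between the controls (65.0% higher, beside 17.2% of all genes), and 8 rose and 2 fell in the knockdown (40.0% higher, beside 12.4%). KDELR3, a receptor that returns chaperones to the ER, stood at 18.1, 18.2 and 19.9 CPM in the knockdown against 6.51, 7.06 and 6.35, a rise of 1.49 ± 0.30 on the log2 scale (adjusted p = 0.00569). With overexpression 0 rose and 3 fell. The share called there lay below that of all genes (18.1%), though the share lower lay above theirs (8.20%). ERP29, an ER chaperone of secretory cargo, fell in both arms, by 0.65 in log2 units with overexpression (adjusted p = 0.00677) and by 0.53 in the knockdown (adjusted p = 0.0101).

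Of 14 glycosylation and glycan trimming genes, 6 fell and 0 rose with overexpression (42.9% lower, beside 8.20% of all genes), and all 14 had a difference below 0. DDOST, a subunit of the oligosaccharyltransferase, stood at 121, 109 and 119 CPM against 148, 176 and 170 and fell by 0.51 ± 0.09 in log2 units (adjusted p = 0.00645). LMAN2, a cargo lectin, fell by 0.46 (adjusted p = 0.00794). In the knockdown 2 rose and 0 fell (14.3% called, beside 23.9% of all genes). The shares called of the next 3 lists lay between 6.25% and 25.0% with overexpression, beside 18.1% of all genes, and between 12.5% and 23.1% in the knockdown, beside 23.9%. Of 16 translocation genes, 1 fell with overexpression, SSR4 (log2 difference -0.68, adjusted p = 0.00206), and 3 rose in the knockdown, SPCS3 by 1.03 (adjusted p = 0.000296) and SSR4 by 0.47 (adjusted p = 0.00554) among them. The third, SSR2, rose by 0.36 (adjusted p = 0.0412), a call that ended in 8 of the 12 omissions of 1 library. Of 16 further ERAD genes, 3 were higher and 1 lower with overexpression and 2 were higher in the knockdown. Of 13 COPII export genes, 1 rose with overexpression, and 2 rose and 1 fell in the knockdown, where SURF4, a cargo receptor, rose by 0.70 (adjusted p = 0.00335).

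Of signalling and PERK output 15 genes were tested. With overexpression 4 rose and 3 fell (46.7% called, beside 18.1% of all genes), and in the knockdown 2 rose and 7 fell (60.0%, beside 23.9%). The difference of the arms was called higher for 7 and lower for 2 (60.0%, beside 25.6%), with a median of 1.31. Between the controls 3 were higher and 6 lower in that of overexpression (60.0%, beside 33.4%), with a median of -1.11. The baselines of the arms therefore differ for these genes. PPP1R15A, the phosphatase subunit GADD34 that restores translation, stood at 533, 487 and 570 CPM with overexpression against 342, 119 and 168, and at 74.8, 148 and 83.5 in the knockdown against 574, 493 and 608. It fell in the knockdown by 2.45 ± 0.36 in log2 units (adjusted p = 0.00118). It rose with overexpression by 1.34 ± 0.35 (adjusted p = 0.0254), a call that ended without any 1 of the 3 overexpression libraries or control replicate 2 or 3 (adjusted p up to 0.0927). ATF4, the factor downstream of PERK, stood at 548 to 604 CPM with overexpression against 309 to 492, a rise of 0.62 ± 0.17 (adjusted p = 0.0310) that ended without the same libraries (adjusted p up to 0.112). In the knockdown ATF4 was not called (-0.37 ± 0.17, adjusted p = 0.143), though it passed without the libraries that stand apart (adjusted p = 0.00834). DDIT3, the late stress factor CHOP, stood at 29.4, 66.2 and 7.93 CPM in the knockdown against 114, 120 and 119. It was not called in either arm (adjusted p = 0.910 with overexpression and 0.0569 in the knockdown), and the knockdown difference of -1.77 passed when overexpression control replicate 1 or knockdown replicate 2 was left out.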

How the data were processed

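Total RNA of A549 cells was extracted with Trizol, mRNA was enriched and libraries were made with NEBNext Ultra, per the labels' protocols. The tools RSEM, StringTie 1.3.1, HISAT2 2.0.5, Bowtie2 2.2.8 and fastp are named in the submitters' processing notes, without their roles. Those notes also name mouse genome builds, whereas the deposited identifiers are human. The authors deposited expected counts per transcript, which are estimates and need not be whole. It also gives FPKM per transcript, as deposited by the authors, scaled to transcript length and depth.

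Rows with an Ensembl transcript were summed by symbol (82270 of 96247 rows). The other 13977 rows, assembled by the authors, held 13.3% to 15.4% of counts and were left out, except in 1 alternative. Expected counts were rounded. edgeR 4.0.16 (R 4.3.3) with TMM scaling and robust quasi-likelihood was fitted to all 12 libraries with 4 group means, over 11908 genes at an FPKM of at least 1 in at least 3 libraries. Each SE is the log2 difference divided by the square root of F. Alternatives used DESeq2 1.42.0, limma 3.58.1, other scaling, filters, a replicate block, 2 groups only and each library left out. The scripts were tested on simulated data.

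Named genes were the members, NR0B1, up to 4 called genes per other list and comparison by smallest adjusted p, and DDIT3, ATF4 and PPP1R15A. The members and lists were chosen with earlier results of these data known. Promoter sequences are from RefSeq and gene positions from GENCODE 29. No explanation of a difference was tested. 1 immune marker is not reported here.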

Additional observations from a re-analysis of the deposited data

Results flagged for a closer look

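For 12 members the response to overexpression differed from the response to knockdown, tested as the difference of the arms in edgeR's quasi-likelihood fit (log2 scale, adjusted p under 0.05 over all genes). The differences were -1.50 for CALR, -1.44 for SDF2L1, -1.24 for PDIA4, -1.04 for PDIA3, -0.98 for HSP90B1, -0.90 for PDIA6, -0.87 for OS9, -0.80 for SEC61B, -0.72 for P4HB, -0.64 for DNAJC3 and -0.57 for ERO1A. XBP1 was the exception in direction, at 1.28. All 12 use both control groups, which themselves differed for 11 of these genes, XBP1 being the one not called between the controls. ERO1A was not called with the replicate block (adjusted p = 0.0535), without the FPKM filter (adjusted p = 0.0528) or with limma (adjusted p = 0.0746), and P4HB was not called with limma (adjusted p = 0.0579). The calls of XBP1, ERO1A, DNAJC3 and SDF2L1 also ended when single libraries, named in the results, were left out.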

How the results depend on the processing

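Over 22 alternatives (21 for the difference of the arms, which a fit of 2 groups cannot give), 0 of the 35 members reversed a call. Members called with overexpression numbered 6. They numbered 11 with DESeq2 and 13 without the libraries that stand apart, and ranged from 3 (without overexpression replicate 3) to 10 (without knockdown replicate 2) with 1 library left out. In the knockdown 9 were called. The count was 15 with DESeq2, 5 with only the 2 groups compared, 15 without the libraries that stand apart and 16 with assembled rows added, and 7 to 12 with 1 library left out. With 1 library left out it was 17 to 25 between the controls and 9 to 13 for the difference of the arms. For the latter it was 16 without the libraries that stand apart. The companion genes called were 43 with overexpression without the libraries that stand apart and 16 in the knockdown with only 2 groups. With 1 library left out they ranged from 5 to 32, 17 to 35, 37 to 54 and 23 to 39 in the 4 comparisons. Over all genes, calls without the libraries that stand apart numbered 4462 with overexpression, 4493 in the knockdown and 4590 for the arms, and 1833 in the knockdown with only 2 groups. With 1 library left out they ranged from 821 to 3300, 1503 to 3435, 2560 to 4920 and 2127 to 3785. The cause of these shifts was not tested.

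With the replicate number as a block, members called were 6, 10, 22 and 11 in the 4 comparisons. Deviations of same-numbered libraries correlated between -0.184 and 0.197, above 0.1 in 2 of 18 pairs. Deviations from a mean of 3 libraries are tied to each other, so these values cannot decide whether the numbers pair the samples. At this depth DERL3 could not be compared.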
